A study of Mus musculus with 12 samples.

Results

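Mmp9, Mmp14, Timp1, Timp2, Timp3, Adam10 and Adam17 are 7 of the 32285 genes counted in single cells of mouse hind paw epidermis, and were found by their symbols in the count files. The 7 genes were chosen with earlier results on diet in Langerhans cells (LCs), the antigen-presenting cells of the epidermis, in view, so their diet values in LCs are a description with no test. Wild-type C57BL/6J mice aged 16-18 weeks had been fed for 10 weeks, from an age of 6-8 weeks, on a regular diet (RD) with 11% fat or a high-fat diet (HFD) with 42% fat, and no drug was given. Each library came from the peeled glabrous epidermis of 1 mouse. There were 4 groups of 3 mice, called Male RD and Male HFD in males and Female RD and Female HFD in females. The libraries held between 134449247 and 194673581 unique molecular identifiers (UMIs, counts of captured transcripts), and between 6226 and 15193 cells per mouse passed the filters on genes and mitochondrial UMIs. Any pair of libraries shared between 0.193 and 0.583% of the barcodes of the smaller one. The headers of the count files name Cell Ranger 6.1.0 for the male and 7.2.0 for the female libraries, while the submitters' processing notes name version 7.2.0, so sex and counting software cannot be told apart, and levels of males and females are given side by side without comparison.

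Matrix metalloproteinases are zinc-dependent enzymes that cut proteins of the extracellular matrix and of the cell surface. Mmp9 (gelatinase B) is secreted and cuts gelatin and the type IV collagen of basement membranes, while Mmp14 is anchored in the membrane and turns the proenzyme of Mmp2 into its active form with the help of Timp2. The tissue inhibitors Timp1, Timp2 and Timp3 each bind the active site of many, but not all, matrix metalloproteinases, and Timp3 is held in the matrix and also blocks Adam17. Adam10 and Adam17 are membrane sheddases: Adam17 releases tumor necrosis factor and ligands of the EGF receptor, and Adam10 cuts Notch receptors and cadherins. In skin, LCs that leave for the lymph node have to pass the basement membrane, and gelatinases are known to take part in that step. On GRCm38, Mmp9 lies on chromosome 2 (164940780-164955850, plus strand) and Mmp14 on chromosome 14 (54431612-54445364, plus strand). Timp1 lies on chromosome X (20870166-20874735, plus strand), Timp2 on chromosome 11 (118301069-118355740, minus strand) and Timp3 on chromosome 10 (86300372-86349506, plus strand). Adam10 is on chromosome 9 (70678997-70780229, plus strand) and Adam17 on chromosome 12 (21323509-21373632, minus strand).

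Cells were clustered within each sex without the 7 genes and without the protease lists, and clusters were named from marker genes. LCs were the clusters that carried the LC markers, further limited to cells with under 0.5% of UMIs from Krt1, Krt5, Krt10 and Krt14. This limit kept 1065 of 1373 male and 1821 of 2172 female LC-like cells, and 190 of 193 male and 284 of 287 female T cell-like cells. The 8 LC markers summed to between 59827 and 72705 CPM (UMIs scaled to a class total of 1000000) in the LCs of every mouse. Cd207, which encodes the LC protein langerin, was at 4363 ± 171 CPM in male and 4788 ± 448 CPM in female LCs (mean ± SD, n = 6 mice in each sex) and at 0 UMIs in the T cells of all 12 mice. Keratinocytes, 60581 male and 61739 female cells, formed basal, dividing, migratory (Krt79, Defb6) and terminal (Lce genes) classes and 4 further clusters called here by their leading genes Il34/Mt4, Oas1f, Serpinb3a/Dnase1l3 and Aox3/Prelp. The Aox3/Prelp cluster met the criterion for basal cells but had no basal marker among its 10 leading genes, and in females these genes included Col1a1, a collagen gene of fibroblasts. The keratin gene Krt14 was at 13913 ± 658 CPM in its male and 9801 ± 344 CPM in its female cells (n = 6), against 17502 and 13653 CPM in basal cells. The 6 fibroblast markers summed to between 26.6 and 66.3 CPM in males and 44.9 and 55.5 CPM in females in this cluster, against at most 0.186 and 0.580 CPM in basal cells. Most of this was Col1a1 (39.1 and 35.0 CPM) and Pdgfra (8.36 and 12.5 CPM), while Col1a2 was at 0.407 and 1.73 CPM, Col3a1 and Lum at 0 in males and at 1.36 and 0.311 CPM in females, and Pdgfrb at 0 in both. The cluster is counted with keratinocytes here and kept under its leading genes.

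Mmp9 was higher on HFD than on RD in the LCs of both sexes, with no overlap between the mice of the 2 diets. Of all genes tested, 6.71% in male and 8.69% in female LCs were higher on HFD without overlap. In Male HFD 1, 2 and 3 the Mmp9 level was 62.0, 46.7 and 35.0 CPM (42, 30 and 25 UMIs). In Male RD 1, 2 and 3 it was 13.4, 19.1 and 3.23 CPM (11, 17 and 2 UMIs). The lowest HFD male thus lay above the highest RD male, and Male RD 3 rested on 2 UMIs. In Female HFD 1, 2 and 3 the level was 68.4, 54.0 and 64.3 CPM (170, 115 and 99 UMIs), and in Female RD 1, 2 and 3 it was 32.5, 11.6 and 32.1 CPM (65, 16 and 78 UMIs). Female RD 2 stood below the other 2 RD females, and the 3 HFD females lay close together. The log2 fold change of HFD over RD was 1.87 (SE 0.37) in males and 1.19 (SE 0.23) in females in the edgeR quasi-likelihood fit, with 3 mice per group. Without Male RD 3 the male value was 1.52, and without Female RD 2 the female value was 0.92. The SE of a log2 fold change was derived from the F statistic of the fit. As the genes were chosen with LC diet results in view, the SEs in LCs are no evidence of a difference.

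More LCs carried a Mmp9 transcript on HFD, also at equal depth. With every cell thinned to 2000 UMIs, which left out 55 male and 42 female LCs with fewer, 12.5, 10.0 and 8.28% of LCs held a Mmp9 UMI in Male HFD 1, 2 and 3, against 3.09, 3.09 and 0.833% in Male RD 1, 2 and 3. The female shares were 11.6, 12.1 and 13.7% on HFD and 5.13, 2.48 and 6.55% on RD, and neither sex showed overlap between the diets. Such shares were not computed over all genes. Without thinning, 23.3, 13.5 and 13.6% of male HFD LCs and 4.48, 3.65 and 1.67% of male RD LCs held a Mmp9 UMI. In females it was 31.5, 27.9 and 28.5% of HFD LCs against 17.0, 5.33 and 14.6% of RD LCs. Keratinocytes, in which Mmp9 was rare, served for comparison, and 33 of 60581 male keratinocytes (0.0545%) and 85 of 61739 female keratinocytes (0.138%) held a Mmp9 UMI, although in each of the 12 mice their median depth (6702 to 15288 UMIs over mice) was above that of LCs (2666 to 7360). Every one of the 127 male and 543 female Mmp9 UMIs in LCs lay in a cell with at least 1 Cd207 UMI, cells that made up between 92.6 and 100% of the LCs of a mouse. In these cells Mmp9 was at 63.8, 49.7 and 35.0 CPM in Male HFD and 13.6, 19.3 and 3.23 CPM in Male RD.

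Most LCs were neither dividing nor of the Ccr7 state, and nearly all Mmp9 UMIs lay in these cells. Ccr7 is the chemokine receptor of LCs on their way to the lymph node. The 15 male LCs of the Ccr7 state held 0 Mmp9 UMIs and the 48 female ones held 4, while dividing LCs held 2 UMIs in 41 male cells and 5 in 36 female cells. The other LCs were 94.7% of male and 95.4% of female LCs and held 125 of the 127 male and 534 of the 543 female Mmp9 UMIs (98.4 and 98.3%). In these other LCs the levels were 67.9, 46.8 and 37.5 CPM in Male HFD against 14.4, 20.4 and 3.51 CPM in Male RD, and 72.0, 56.2 and 66.3 CPM in Female HFD against 34.2, 12.2 and 33.3 CPM in Female RD. LC-like cells over the keratin limit had a mean of 5.38 CPM in males and 14.3 CPM in females, below the means of 29.9 and 43.8 CPM under it.

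Timp2, the inhibitor that binds both Mmp2 and Mmp14, was also higher on HFD in male LCs as a class, but most of that difference lay in a few cells without Cd207. Over all LCs the levels were 29.5, 65.4 and 21.0 CPM (20, 42 and 15 UMIs) in Male HFD 1, 2 and 3 and 6.08, 9.0 and 3.23 CPM (5, 8 and 2 UMIs) in Male RD 1, 2 and 3. The diets did not overlap, as for 6.71% of all genes in the higher direction. The log2 fold change of Timp2 was 2.52 (SE 0.47), or 1.92 without Male HFD 2. In Male HFD 2, however, 37 of the 42 Timp2 UMIs lay in 7 of the 148 LCs, cells that held a UMI of Mrc1, the macrophage mannose receptor. These 7 cells had 0 Cd207 UMIs among 27826 UMIs, against 4734 CPM in the other LCs of that mouse, and had 5678 CPM of Lyz2, 3378 CPM of C1qb and 1222 CPM of Mrc1. Timp2 was at 1330 CPM in them and at 8.14 CPM in the other LCs of the mouse, and they held 0 Mmp9 UMIs. No LC of the other 5 males held a Mrc1 UMI. In Male HFD 1, 9 of the 20 Timp2 UMIs lay in 2 LCs without Cd207.

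In LCs with at least 1 Cd207 UMI, the male diets overlapped for Timp2. The levels there were 16.7, 6.62 and 21.0 CPM (11, 4 and 15 UMIs) in Male HFD 1, 2 and 3 and 4.93, 9.11 and 3.23 CPM (4, 8 and 2 UMIs) in Male RD 1, 2 and 3. Male HFD 2 thus fell below Male RD 2, while Male HFD 1 and 3 lay above the 3 RD males. The counts in these cells were too low to pass the low-count filter of the fit. The summed macrophage and monocyte markers (Lyz2, Adgre1, C1qa, C1qb, Mrc1 and Ly6c2, 4 to 5 of which had UMIs) ran higher in Male HFD 1 and 2, at 1006, 1465 and 767 CPM in Male HFD 1, 2 and 3 and 657, 805 and 749 CPM in Male RD 1, 2 and 3. This sum includes transcripts of Cd207-positive LCs. Among LCs with a Cd207 UMI, C1qb was at 187, 134 and 122 CPM in Male HFD 1, 2 and 3. It was at 91.3, 124 and 108 CPM in those of Male RD 1, 2 and 3. Lyz2 was at 1.52 CPM in the Cd207-positive LCs of Male HFD 1. The 8 T cell markers summed to 29.5, 32.7 and 0 CPM in Male HFD and 9.73, 2.25 and 0 CPM in Male RD, with Cd3e at 0 UMIs in the LCs of every male. With the LCs that held a UMI of Lyz2, Mrc1 or a T cell marker left out, a choice made after the position of the Timp2 UMIs was seen, Timp2 was at 24.4, 6.68 and 21.4 CPM in Male HFD and 6.41, 9.08 and 3.26 CPM in Male RD. The same step left Mmp9 with log2 fold changes of 1.83 in males and 1.2 in females.

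**Figure D1:**
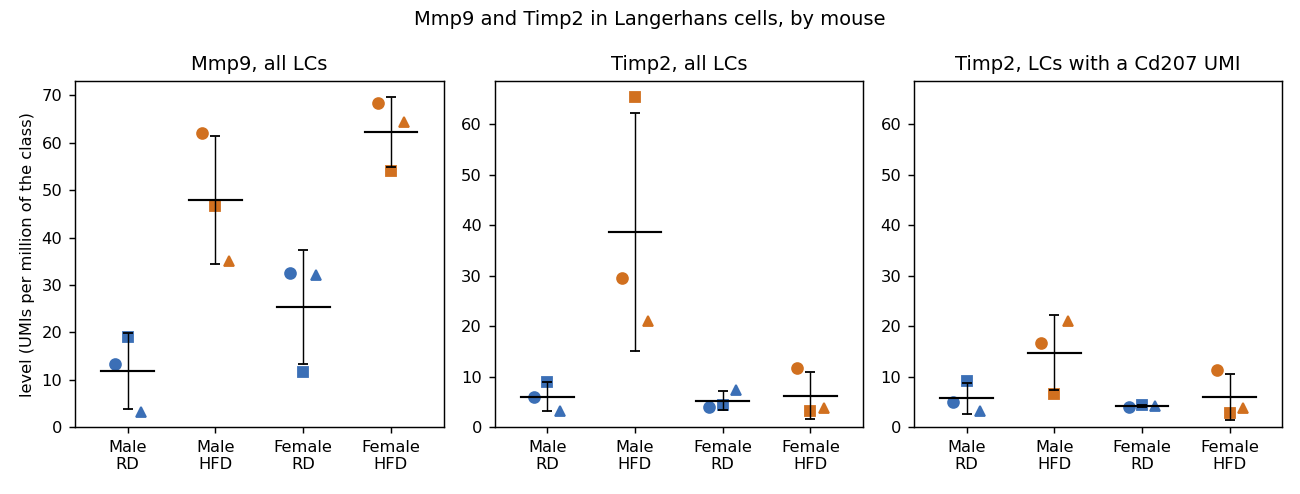
Level of Mmp9 in all LCs (left), Timp2 in all LCs (middle) and Timp2 in LCs with a Cd207 UMI (right), in CPM, with 1 point per mouse (circle, square and triangle for replicates 1, 2 and 3; blue RD, orange HFD), the mean as a bar and the SD as a whisker (n = 3). Mmp9 separates the diets in both sexes, while the Male HFD 2 point of Timp2 drops from 65.4 to 6.62 CPM once cells without Cd207 are left out.

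In female LCs Timp2 was low on both diets. It was at 11.7, 3.29 and 3.90 CPM (29, 7 and 6 UMIs) in Female HFD 1, 2 and 3 and at 4.00, 4.35 and 7.41 CPM (8, 6 and 18 UMIs) in Female RD 1, 2 and 3. The diets overlapped, Female HFD 1 was the highest, and the gene did not pass the low-count filter. In Female RD 3, 2 of the 404 LCs held a Mrc1 UMI, and these cells, with 0 Cd207 UMIs, carried 8 of the 18 Timp2 UMIs.

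For each of the other members, the values of the 2 diets overlapped in the LCs of both sexes. Mmp14 was at 35.5, 29.6 and 40.6 CPM in Male HFD against 38.9, 38.2 and 35.5 CPM in Male RD, and at 43.9, 42.2 and 37.7 CPM in Female HFD against 43.0, 36.2 and 38.7 CPM in Female RD. Its log2 fold change was -0.12 (SE 0.23) in males and 0.05 in females. Adam10 had a log2 fold change of -0.59 (SE 0.35) in males, at 8.86, 14 and 16.8 CPM on HFD against 24.3, 15.7 and 19.4 CPM on RD, and of -0.05 in females. With no keratin limit on LCs the male value of Adam10 was -0.18. For Adam17 the log2 fold change was 0.12 (SE 0.28) in males and -0.12 in females. Timp1 was at 0, 1.56 and 4.20 CPM in Male HFD and 1.22, 2.25 and 11.3 CPM in Male RD, and at 21.7, 7.04 and 5.85 CPM in Female HFD and 8.00, 21.0 and 19.4 CPM in Female RD. The female log2 fold change of Timp1 was -0.39 (SE 0.43), and -1.28 without Female HFD 1, the highest HFD female. Timp3 had between 0 and 8 UMIs per mouse apart from Female RD 3, where 20 of 35 UMIs lay in 1 cell, and the 8 UMIs of Male HFD 1 lay in 1 cell.

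In male LCs Timp1 and Timp3, and in female LCs Timp2 and Timp3, were under the low-count filter. Timp2 of male LCs, with at most 8 UMIs in an RD male, had 15 to 42 UMIs in the HFD males, so that it passed the filter through the group in which it was high. Groups did not overlap for 13.1% of genes in male and 18% in female LCs, of which genes higher on HFD made up 6.71 and 8.69% of those tested. The difference between the male and female diet effects in LCs was 0.66 on the log2 scale for Mmp9 and 2.26 for Timp2, the latter including the Mrc1-positive cells of Male HFD 2.

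Across the cell classes, each member had its own distribution, and classes are described here without a test. Mmp9 was highest in LCs, at 29.9 ± 22.1 CPM in male and 43.8 ± 22.0 CPM in female LCs (n = 6), against at most 1.01 CPM in any keratinocyte class of either sex. T cells held 1 Mmp9 UMI in males, which sets their mean of 3.17 CPM, and 0 UMIs in females, where a count of 0 allows up to 3.33 CPM. The 6 female LC values lay above every value of the class with the next highest mean, whereas the male LC range overlapped the single T cell UMI. Among the few keratinocyte UMIs, 11 of 55 in males and 30 of 137 in females came from 1 cell.

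**Figure D2:**
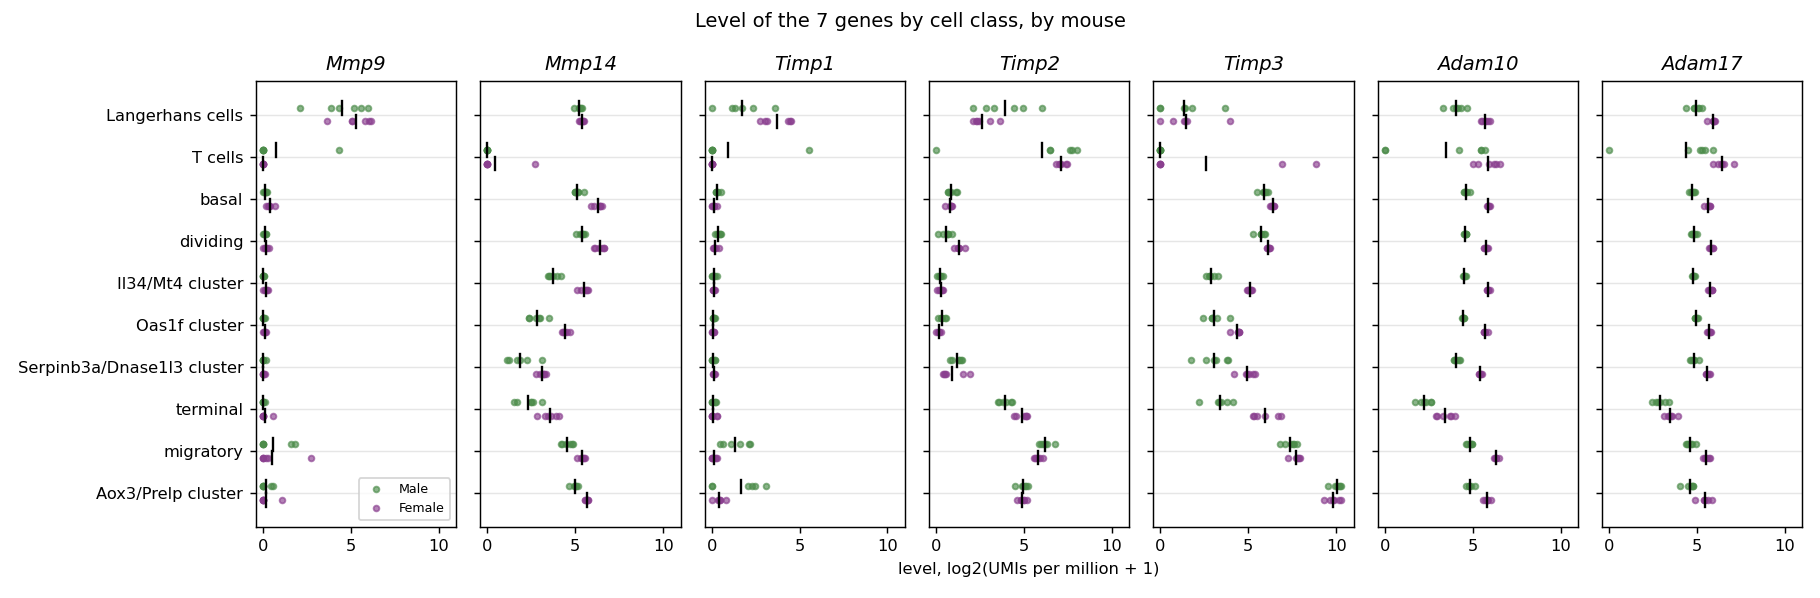
Level of the 7 genes in 10 cell classes, as log2 of CPM plus 1, with 1 point per mouse (green males, purple females) and the mean of each sex as a vertical bar (n = 6). Mmp9 stands out in LCs, Timp3 in the Aox3/Prelp cluster, Timp2 in T cells and migratory keratinocytes, and Adam10 and Adam17 are low in the terminal class.

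The inhibitors Timp2 and Timp3 had their highest means in different classes. Timp2 had its highest mean in T cells, 139 ± 95.4 CPM in males and 140 ± 23.4 CPM in females, and the next highest in migratory keratinocytes (73.9 ± 18.0 and 54.3 ± 7.33 CPM). In males the Aox3/Prelp cluster (30.3 ± 5.12 CPM), LCs (22.4 ± 23.3 CPM) and terminal keratinocytes (14.4 ± 3.57 CPM) followed, with overlap between neighbours in this order. The male LC mean includes the Timp2 UMIs of cells without Cd207, and the place of LCs above terminal keratinocytes depends on them. Male LCs with a Cd207 UMI lay between 3.23 and 21.0 CPM. In females terminal keratinocytes (29.4 ± 6.31 CPM) and the Aox3/Prelp cluster (29.3 ± 4.18 CPM) overlapped and lay above LCs (5.77 ± 3.24 CPM). The fibroblast markers summed to between 1.18 and 161 CPM in male and 1.33 and 3.24 CPM in female migratory cells. The female T cell and migratory values did not overlap, while the male T cell values ranged from 0 to 254 CPM and did. In the 5 other keratinocyte classes Timp2 had means between 0.113 and 1.47 CPM, all below the terminal class. Timp3, the matrix-bound inhibitor, reached 1056 ± 186 CPM in males and 939 ± 219 CPM in females in the Aox3/Prelp cluster, and migratory keratinocytes came next at 169 ± 39.1 and 213 ± 31.8 CPM without overlap. Basal cells had 58.8 ± 8.29 and 82.4 ± 5.74 CPM of Timp3 and dividing cells 51.9 ± 8.03 and 70.1 ± 3.68 CPM. LCs had means of 2.90 and 3.34 CPM. Timp1 was scarce. In females its mean was 13.8 ± 7.59 CPM in LCs and at most 0.369 CPM in the other classes, without overlap. In males LCs (3.42 ± 4.10 CPM), the Aox3/Prelp cluster (3.2 ± 2.91 CPM) and migratory cells (1.83 ± 1.38 CPM) overlapped, and the T cell mean of 7.47 CPM came from 3 UMIs in 1 cell.

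Among keratinocytes, Mmp14 was higher in dividing and basal cells than in the suprabasal clusters. Its mean was highest in dividing cells, at 40.4 ± 5.08 CPM in males and 83.9 ± 14.1 CPM in females. Basal cells had 34.2 ± 5.20 and 78.4 ± 12.4 CPM, and LCs 36.4 ± 3.89 and 40.3 ± 3.16 CPM, so that the male LC and basal ranges overlapped. Suprabasal levels were 12.6 ± 2.86 and 44.8 ± 6.91 CPM in the Il34/Mt4 cluster, 6.36 ± 2.24 and 20.6 ± 2.48 CPM in the Oas1f cluster and 3.10 ± 2.36 and 7.74 ± 1.2 CPM in the Serpinb3a/Dnase1l3 cluster. T cells held 0 Mmp14 UMIs in males and 1 in females. The sheddases were spread more evenly: outside the terminal class, Adam10 means lay between 16.0 and 27.8 CPM in males and 41.9 and 79.7 CPM in females, and Adam17 means between 23.4 and 32.9 CPM in males and 43.2 and 87.5 CPM in females. In the terminal class Adam10 was at 3.90 and 10.3 CPM and Adam17 at 6.69 and 10.3 CPM.

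Among the genes with the class pattern most like that of Mmp9, by Pearson's r of log2(CPM + 1) over the means of 10 classes averaged over the sexes, were Plekho1 (0.992), Pkib (0.991), H2-M5 (0.985) and Scimp (0.984), of 9796 genes compared. For Timp2 they were Jund (0.918), Enc1 (0.903), Fbxo32 (0.874), Lbh (0.874) and Runx1 (0.863). The points of a correlation share libraries, and the 10 classes differ in depth. Plekho1 was at 59.0 CPM in male and 59.1 CPM in female LCs.

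T cells carried Timp2 in most mice. In Male RD 1, 2 and 3 the levels were 193, 209 and 0 CPM, from 7, 6 and 0 cells with a UMI, and in Male HFD they were 89.6, 254 and 87.4 CPM from 6, 7 and 5 cells. Female RD mice had 139, 131 and 165 CPM from 10, 10 and 20 cells, and Female HFD mice 171, 110 and 127 CPM from 36, 7 and 11 cells. The values of the diets overlapped in both sexes. Of 190 male and 284 female T cells, 185 and 248 held a UMI of a T cell marker, and these held 34 of 41 male and 104 of 134 female Timp2 UMIs. Per cell, Timp2 UMIs were thus more frequent in the cells without a marker UMI in both sexes. One cell of Male RD 2 held 6 of its 11 Timp2 UMIs, and without that cell the level was 100 CPM. In the fit of female T cells the log2 fold change of Timp2 was -0.05 (SE 0.29, adjusted p = 0.97, edgeR), where 0.237% of all genes passed. The counts of male T cells were too low for a fit of any member.

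Outside LCs no member passed an adjusted p of 0.05 in edgeR between HFD and RD. In males 37 tests of members in 8 keratinocyte classes gave 0 calls, a smallest adjusted p of 0.12 and 9 unadjusted p under 0.05, which 10% of all gene tests in these classes had, and in DESeq2 0 calls. In females 38 tests in 9 classes, T cells included, gave 0 calls, a smallest adjusted p of 0.13 and 7 unadjusted p under 0.05, which 16.1% of all gene tests had, and in DESeq2 1 call, Timp3 in the Aox3/Prelp cluster. Over all keratinocytes, 6 members tested in males and 7 in females gave 0 calls in either tool, with 1 and 0 unadjusted p under 0.05, against 9.1 and 21.8% of all genes. Few genes of any kind passed in males: 0.0438% in the Aox3/Prelp cluster, 0.0196% in the Serpinb3a/Dnase1l3 cluster and 0% in basal, dividing, migratory, Il34/Mt4, Oas1f and terminal cells and over all keratinocytes. In females 3.38% of genes passed over all keratinocytes, 0.955% in basal, 1.7% in dividing, 0.21% in migratory, 0.0576% in Aox3/Prelp, 1.65% in Il34/Mt4, 2.22% in Oas1f, 0.628% in Serpinb3a/Dnase1l3 and 0% in terminal cells.

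Mmp14 was lower on HFD in most male keratinocyte classes, by values that did not pass the test. Over all male keratinocytes its level was 18.7, 25.7 and 19.4 CPM on RD and 15, 14.8 and 17.4 CPM on HFD, without overlap, where 7.19% of all genes were lower without overlap. The log2 fold change was -0.37 (SE 0.11, adjusted p = 0.37, edgeR). In migratory cells the RD males had 24.6, 26.7 and 28.2 CPM and the HFD males 17.5, 18.0 and 21.2 CPM, a log2 fold change of -0.43 (SE 0.12, adjusted p = 0.54, edgeR). In the Il34/Mt4 cluster RD males had 14.4, 17.5 and 12.3 CPM and HFD males 10.1, 10.5 and 10.7 CPM, a log2 fold change of -0.45 (SE 0.12, adjusted p = 0.58, edgeR). Again every HFD male lay below every RD male.

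Among the 8 keratinocyte classes, the male log2 fold change of Mmp14 was farthest from 0 in the Serpinb3a/Dnase1l3 cluster, though differences between classes were not tested. It was -0.25 (SE 0.10) in basal and -0.24 (SE 0.10) in dividing cells, -0.66 (SE 0.20, adjusted p = 0.27, edgeR) in the Oas1f cluster and -1.43 (SE 0.41, adjusted p = 0.24, edgeR) in the Serpinb3a/Dnase1l3 cluster, where the levels were 3.72, 7.56 and 2.57 CPM on RD and 1.19, 1.40 and 2.19 CPM on HFD. Among all genes, 6.34% in basal, 6.59% in dividing, 5.77% in migratory, 6.18% in Il34/Mt4, 9.39% in Oas1f and 10.9% in Serpinb3a/Dnase1l3 cells were lower on HFD without overlap. In plain CPM, terminal cells had 4.54, 7.53 and 5.14 in Male RD 1, 2 and 3 and 2.28, 4.53 and 1.88 in Male HFD, with the nearest mice almost equal. The log2 fold change of terminal cells was -0.62 (SE 0.30), and the TMM-scaled levels of the diets overlapped there. The Aox3/Prelp cluster went the other way, at 0.22 (SE 0.16). The summed level of the 8 basal markers was also low in Male HFD 1 and 2: in the Serpinb3a/Dnase1l3 cluster it was 1680, 2571 and 1305 CPM in Male RD 1, 2 and 3 and 400, 767 and 1508 CPM in Male HFD, and in the Oas1f cluster 2612, 3969 and 2255 CPM against 1253, 1771 and 2374 CPM. Median UMIs per cell differed too, at 18314, 12383 and 22306 in Male RD and 26371, 20781 and 22409 in Male HFD in the Serpinb3a/Dnase1l3 cluster. The part of basal transcripts and of depth in the Mmp14 values was not tested.

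**Figure D3:**
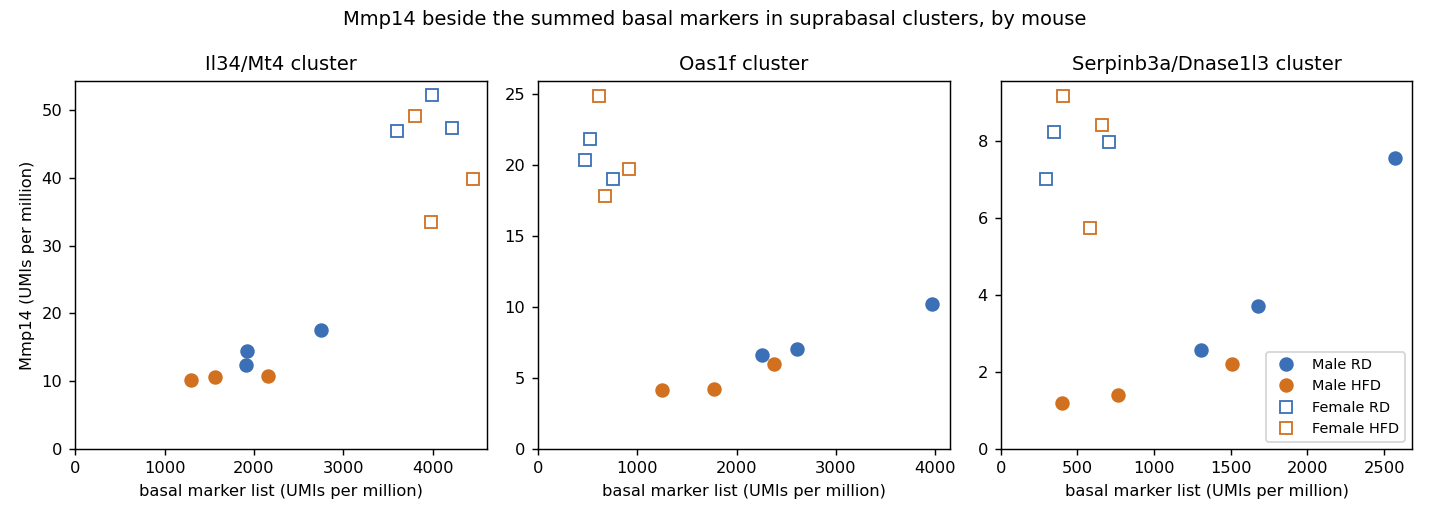
Mmp14 level against the summed level of 8 basal markers, both in CPM, in 3 suprabasal clusters, with 1 point per mouse (filled circles males, open squares females; blue RD, orange HFD). The 2 male mice with the lowest basal sums, Male HFD 1 and 2, have the lowest Mmp14 levels, while the female points show no such order.

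In females the Mmp14 difference had the same sign in basal, dividing and Il34/Mt4 cells and depended on 1 mouse. Basal cells had 92.1, 83.1 and 84.3 CPM in Female RD 1, 2 and 3 and 66.9, 84.6 and 59.5 CPM in Female HFD 1, 2 and 3, a log2 fold change of -0.30 (SE 0.11, adjusted p = 0.23, edgeR). Female HFD 2 lay within the RD values. Without Female HFD 2 the change was -0.44 in basal, -0.41 in dividing and -0.40 in Il34/Mt4 cells and -0.34 over all keratinocytes, and each passed (adjusted p = 0.019, 0.021, 0.027 and 0.030, edgeR). Of all genes, 3.43% in basal, 4.4% in dividing and 5.22% in Il34/Mt4 cells and 5.07% over all keratinocytes passed without this mouse, more than with it. In the Oas1f and Serpinb3a/Dnase1l3 clusters the female values were -0.01 and -0.03. The difference between the male and female diet effects on Mmp14 was -0.63 (adjusted p = 0.15, edgeR) in the Oas1f cluster and -1.33 (adjusted p = 0.11, edgeR) in the Serpinb3a/Dnase1l3 cluster, where 1.22 and 1.59% of all genes passed that test.

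**Figure D4:**
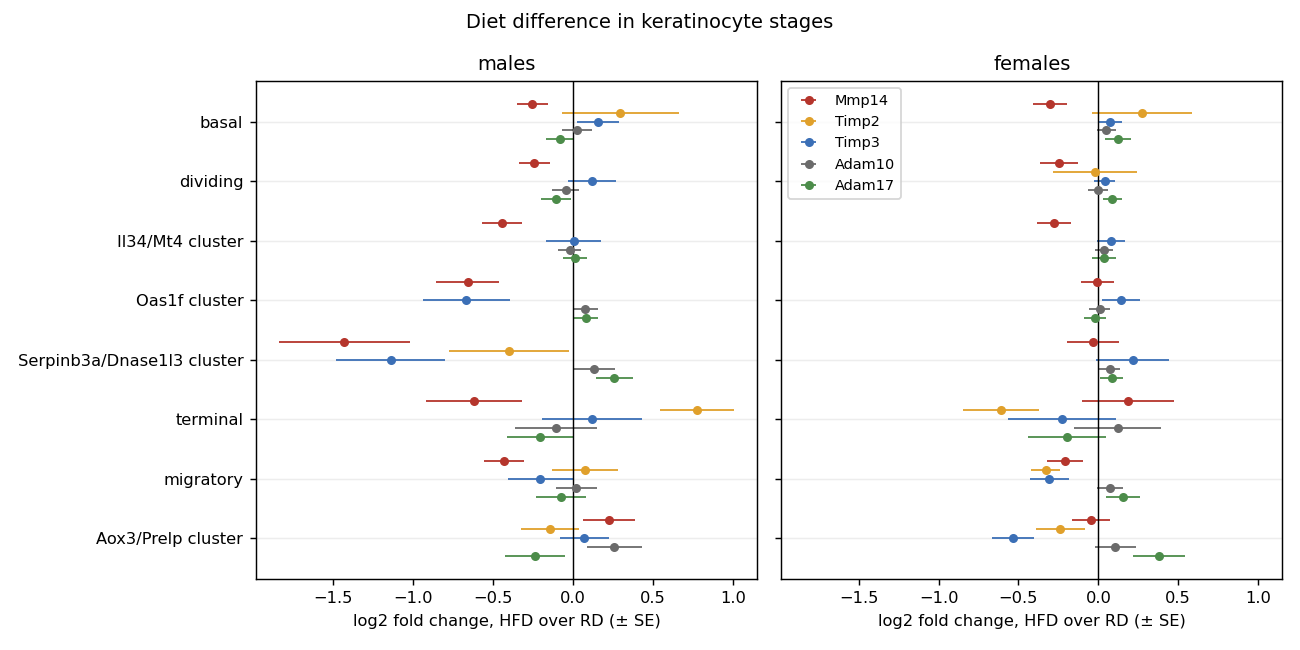
Log2 fold change of HFD over RD for Mmp14, Timp2, Timp3, Adam10 and Adam17 in 8 keratinocyte classes of males (left) and females (right), as points with the SE as a line (3 mice per diet; genes under the low-count filter have no point). Mmp14 lies left of 0 in 7 of the 8 male classes, and Adam10 stays near 0 in both sexes.

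Outside LCs, 49 tests of the difference between the male and female diet effects on members in 10 classes gave 0 calls in edgeR, 9 unadjusted p under 0.05, which 13.9% of all gene tests had, and 1 call in DESeq2. Of all genes, 1.51% passed this test over all keratinocytes, 0.0414% in basal, 0.0351% in dividing, 0.146% in migratory, 0.0278% in Aox3/Prelp and 0.148% in Il34/Mt4 cells, and 0% in T cells and terminal cells. The call in DESeq2 was that of Timp2 in terminal keratinocytes.

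Timp2 in terminal keratinocytes had opposite signs in the sexes. Its level was 10.8, 10.6 and 14.9 CPM in Male RD and 12.9, 18.1 and 18.9 CPM in Male HFD, a log2 fold change of 0.78 (SE 0.23, adjusted p = 0.12, edgeR), and 34.6, 33.2 and 31.5 CPM in Female RD and 22.3, 20.5 and 34.3 CPM in Female HFD, a change of -0.61 (SE 0.24, adjusted p = 0.55, edgeR). The difference between the 2 effects was 1.5 (SE 0.35) with an adjusted p of 0.074 in edgeR and passed in DESeq2, with an adjusted p of 0.0072. Without Female RD 2 the difference was 1.63 and passed (adjusted p = 0.017, edgeR), and without Male RD 3 the male change was 1.08 and passed (adjusted p = 0.035, edgeR). With the replicate number as a block the male change was 0.79 and passed (adjusted p = 0.033, edgeR). Many genes passed in these fits: 19.2% of all genes for the difference in DESeq2, 13.6% for it without Female RD 2, and in males 5.5% without Male RD 3 and 4.81% with the block. Before adjustment, 24.7% of all genes had a p under 0.05 in male terminal cells and 25.1% for the difference. The size of these values depended on the scaling. The TMM factors of terminal cells ranged from 0.796 to 1.33 in males and 0.778 to 1.2 in females, and without them, a choice made after they were seen, the changes were 0.46 and -0.36 and their difference 0.83 (adjusted p = 0.14, edgeR). The plain CPM of the diets overlapped in both sexes. Male terminal cells included cells of low depth led by Lars2 and Gm42418. In female migratory cells Timp2 was at 65.7, 54.2 and 60.0 CPM on RD and 47.8, 50.4 and 47.4 CPM on HFD, without overlap, as for 10.9% of all genes in the lower direction, with a log2 fold change of -0.33 (SE 0.09, adjusted p = 0.13, edgeR).

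The female values of Timp3 were lower on HFD in the cluster with its highest level, a difference that passed in DESeq2 but not in edgeR. In the Aox3/Prelp cluster the levels were 1146, 1216 and 952 CPM in Female RD 1, 2 and 3 and 622, 806 and 893 CPM in Female HFD, a log2 fold change of -0.54 (SE 0.13, adjusted p = 0.19 in edgeR and 0.023 in DESeq2, which called 0.243% of all genes there). The diets did not overlap, as for 7.73% of all genes in the lower direction. The males had 1142, 1250 and 729 CPM on RD and 1173, 971 and 1074 CPM on HFD, a change of 0.07 with overlap. In female migratory cells Timp3 was at 241, 236 and 227 CPM on RD and 213, 209 and 154 CPM on HFD (log2 fold change -0.31, SE 0.12, adjusted p = 0.27, edgeR). In the male Serpinb3a/Dnase1l3 cluster the change of Timp3 was -1.14 (SE 0.34, adjusted p = 0.25, edgeR). The TMM-scaled Timp3 levels of the diets did not overlap there, as for 10.9% of all genes in the lower direction. Male HFD 1 and 2 had the lowest basal sums in that cluster, and the basal sum of Male HFD 3 lay within the RD values. The part of basal transcripts in the Timp3 values was not tested.

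No diet difference of the sheddases passed the test in keratinocytes. Adam10 had log2 fold changes between -0.11 and 0.26 and Adam17 between -0.24 and 0.38 in the keratinocyte classes of both sexes, with 0 adjusted p under 0.05 in edgeR. The farthest value, Adam17 in the female Aox3/Prelp cluster, was 0.38 (SE 0.16, adjusted p = 0.48, edgeR). Over all female keratinocytes the log2 fold change was 0.02 (SE 0.05) for Adam10 and 0.04 (SE 0.06) for Adam17.

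Of 79 further genes of the protease network in 9 lists (other metalloproteinases and ADAMs, inhibitors, activators of ADAMs, proprotein convertases, the plasminogen system, cathepsins, partners of Mmp9 and Mmp14, and shed substrates), 78 were in the count files. In LCs 31 of them were tested in males and 40 in females, and 0 were higher and 0 lower at an adjusted p of 0.05 in edgeR, which 0.0333% of 6009 genes in male and 0.791% of 9234 genes in female LCs passed. Their median log2 fold change was -0.01 in males and -0.06 in females, against -0.0010 and -0.0021 over all genes. The highest LC level of each list, in male and female CPM, was that of Cst3, an inhibitor of cysteine cathepsins, at 13216 and 7210; of Csf1r, the receptor through which Il34 keeps LCs alive, at 898 and 539; of Cd44, a docking site for Mmp9 on the cell surface, at 649 and 620; of Plaur, the urokinase receptor, at 155 and 836; of Furin, which activates Mmp14 and Adam proenzymes, at 116 and 175; and of Mmp25, a membrane-anchored metalloproteinase, at 24.3 and 34.5. Among other ADAMs Adam8 led in males at 46.0 CPM and Adam9 in females at 84.7 CPM, and Rhbdf2 in males (15.6 CPM) and Tspan14 in females (80.7 CPM) led the regulators of Adam17 and Adam10. Of the other inhibitors, Timp4 had 0 UMIs in LCs of both sexes. Mmp2, the other gelatinase, had means of 0.578 CPM in male and 0.467 CPM in female LCs.

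In keratinocytes 54 of the 78 genes were tested in males and 66 in females over all cells, with 0 higher and 0 lower in males and 0 higher and 1 lower in females. Of all genes, 0% passed in males and 3.38% in females, so the count of list genes does not exceed the share of all genes. The lower list gene in females was Mmp2, the gelatinase that Mmp14 activates. It was at 35.1, 34.2 and 36.7 CPM (TMM-scaled) in Female RD 1, 2 and 3 and 25, 26.2 and 29.1 CPM in Female HFD. The log2 fold change was -0.40 (SE 0.07, adjusted p = 0.028, edgeR). In female dividing cells Mmp2 was at 32.7, 29.9 and 31.8 CPM on RD and 21.0, 20.7 and 21.3 CPM on HFD, with a change of -0.58 (SE 0.07, adjusted p = 0.016, edgeR). Of all genes, 1.7% passed in female dividing cells. The HFD females lay below the RD females in both, as for 14.9% of all genes over all keratinocytes. Without the Aox3/Prelp cluster the change of Mmp2 over all keratinocytes was -0.42 (adjusted p = 0.027, edgeR). Without any 1 of the 3 RD females, each call on Mmp2 was lost (adjusted p between 0.067 and 0.13, edgeR), as it was without Female HFD 3 over all keratinocytes (0.066) and without Female HFD 1 in dividing cells (0.059), with changes between -0.37 and -0.62. In males the log2 fold change of Mmp2 was 0.14 (adjusted p = 0.74, edgeR), and the difference between the sexes over all keratinocytes was 0.53 (adjusted p = 0.061, edgeR).

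Of the ADAM substrates, Jag1, a Notch ligand, was lower on HFD in the female Serpinb3a/Dnase1l3 cluster, at 67.8, 77.1 and 67.2 CPM (TMM-scaled) on RD and 52.7, 53.9 and 55.1 CPM on HFD. Its log2 fold change was -0.39 (SE 0.07, adjusted p = 0.046, edgeR), where 0.628% of all genes passed. Without any 1 of the 6 mice the adjusted p lay between 0.068 and 0.12 in edgeR. At the higher resolution of the clusters the call was lost too (adjusted p = 0.14, edgeR). Pcsk6, a proprotein convertase, differed in diet effect between the sexes over all keratinocytes by 0.95 (SE 0.21, adjusted p = 0.040, edgeR), where 1.51% of genes did, with 0.44 in males and -0.53 in females, neither of which passed on its own (adjusted p = 0.16 and 0.12, edgeR). Of 12 fits without 1 mouse, 9 lost this call. These calls were the members of the lists past the threshold in any class and sex.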

How the data were processed

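The authors deposited, for each of 12 mice, whole-number UMI counts per gene and barcode, without normalization. Their notes name Seurat 5.0.0 and the mm10 (GRCm38) genome, and whether intron reads were counted is not given in the sources used here. The 7 genes, the lists and the tests were chosen with earlier results of these data known. As in the study's methods, a cell needed at least 200 (males) or 500 (females) genes, no more than 6000 genes and no more than 5% of its UMIs from mitochondria. Within each sex, scanpy 1.11.5 and leidenalg 0.10.2 clustered the cells on 2000 variable genes without the 7 genes and the protease lists, with 10 principal components, 20 neighbors and the lowest resolution that gave at least 10 clusters. A cluster was named when at least 3 markers had a log2 fold of 0.5 in at least 0.1 of its cells. Of the clusters, 4 took their leading genes as names after these were seen, and doublets were not removed. UMIs were summed per mouse and class, and levels are CPM of these sums. Diets were compared within each sex, and their difference between sexes over 12 mice, by the quasi-likelihood test of edgeR 4.0.16 (TMM, filterByExpr, Benjamini-Hochberg over all genes tested, threshold 0.05). Alternatives were DESeq2 1.42.0, RLE factors, no TMM factors and all keratinocytes without the Aox3/Prelp cluster (both added after seeing the data), no low-count filter, other keratin, Cd207 and gene limits, higher resolution, a replicate block and leaving out each mouse. Replicates are separate mice. Named list genes passed the test or had the highest LC level of a list. A gene that the rule on likeness to a member named is not reported here. Intervals and limits at a count of 0 cover counting error only. The tests were tried on simulated counts.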

Additional observations from a re-analysis of the deposited data

How the results depend on the processing

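No called value changed sign. No member was fitted in male T cells. Counts of members past the threshold were 0 in each comparison outside LCs, where members were not counted. Without the low-count filter the counts were 2 in female migratory cells, the male Oas1f and male Serpinb3a/Dnase1l3 clusters and the Oas1f sex difference, 3 for the Serpinb3a/Dnase1l3 sex difference, and 1 in female T cells, the female Aox3/Prelp, male and female Il34/Mt4 and female Serpinb3a/Dnase1l3 clusters, male terminal cells and the sex differences of migratory and terminal cells. The shares of all genes called in the fits without that filter are not given here for these classes, so these counts are no result about the members. In LCs that setting raised the genes called from 2 to 109 in males and from 73 to 369 in females. DESeq2 gave 1 in the female Aox3/Prelp cluster and 1 for the terminal sex difference. Leaving out 1 mouse gave 0 to 1 in female T cells (Timp3, at 0 in every RD female), all keratinocytes, basal, dividing, Il34/Mt4 and Serpinb3a/Dnase1l3 cells, male terminal cells and the terminal sex difference. For female T cells and the female Serpinb3a/Dnase1l3 cluster, the shares of all genes called in these fits are not given here. Timp3 of T cells was fitted only through HFD females, so neither count is a result about the members. All genes called in male LCs numbered 2, against 109 without the filter, 15 in DESeq2, 14 without TMM factors or with at least 1000 genes, 10 with a Cd207 UMI, 7 without Lyz2, Mrc1 or T cell marker UMIs 0 without the keratin limit and 1 to 14 without 1 mouse. In female LCs they numbered 73, against 369 without the filter, 6 without the keratin limit, 2 with no keratin UMI and 7 to 124 without 1 mouse.

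The replicate numbers of the labels were not taken to pair the mice: same-numbered samples correlated between -0.35 and 0.33 in their deviations from group means over all classes, and in no class and sex were all 3 pairs over 0.1. Over all male keratinocytes (0.044, 0.11 and 0.14) and in male basal cells each RD sample correlated best with the HFD sample of its own number. With the replicate number as a block, the members past the threshold numbered 1 in male terminal cells (Timp2, adjusted p = 0.033, edgeR), and the genes called 16 in male and 115 in female LCs. The block lost the calls of Mmp2 over all female keratinocytes (adjusted p = 0.077, edgeR) and in dividing cells (0.065), of Jag1 (0.075, and 0.063 without TMM factors and no block) and of the Pcsk6 sex difference (0.054).

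Mean levels in CPM moved by more than the SD between mice in 28 cases and by less in 304. Without the keratin limit LC Mmp14 was 28.3 in males and 45.0 in females and Timp3 15.4 and 18.1. With no keratin UMI LC Mmp14 was 26.4 and 28.1, female LC Adam10 44.3 and Adam17 49.6, male T cell Adam10 0 and female T cell Timp2 228. With at least 1000 genes male T cell Timp2 was 363, Adam10 56.1 and Adam17 7.77, and female terminal Adam17 13.4. On the scale of the edgeR fit female T cell Timp2 was 180. That scale divides by the UMIs of genes past the low-count filter, with TMM factors there between 0.980 and 1.02. At the higher resolution female basal Timp3 was 90.4, migratory Mmp14 32.7 and Timp2 44.6, Il34/Mt4 Timp3 8.80 (males) and Adam17 43.5 (females), Oas1f Adam10 21.8 and Adam17 28.5 (males) and Timp3 16.8, Adam10 47.2 and Adam17 44.6 (females), and female Serpinb3a/Dnase1l3 Mmp14 5.81, Timp3 40.0 and Adam10 39.0. The cause of these moves was not tested. The log2 fold change of LC Mmp9, a value known when the genes were chosen, was 1.52 to 2.35 in males and 0.92 to 1.40 in females without 1 mouse. Depth limits T cells and LC Timp1, Timp2 and Timp3, with 0 to 42 UMIs per male mouse.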

Other observations

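Timp3 appeared in the T cells of 2 mice. Female HFD 1 had 136 Timp3 UMIs in 8 of 80 T cells, 95 of them in 1 cell, Female HFD 3 had 14 UMIs in 4 of 32 T cells, and the T cells of the other 10 mice held 0. Of these 12 cells, 10 held a UMI of a T cell marker. They also held 64 UMIs of Il22, a cytokine of epidermal T cells, against 217 in the other 272 female T cells, a gene looked at after the cells were known. The other 272 cells came from females of both diets. Il22 UMIs were neither scaled to depth nor split by mouse or cell, so no difference is drawn from them. Timp3 did not pass the low-count filter in female T cells, and no fold is given against the RD females, all at 0.

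The gene whose class pattern was most like that of Timp3 was Syn3, with a mean r of 0.955 over 10 classes. Timp3 lies within Syn3 on the other strand, and the split of reads between the 2 genes is uncertain where counting did not use strand. Syn3 was named after its value was seen.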
